A study of Arabidopsis thaliana with 6 samples.

Results

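Unspliced transcripts of transposable elements (TEs) around the centromeres of Arabidopsis thaliana are described here, as long-read models from flower buds. A member is a transcript model with exactly 1 exon whose midpoint lies in one of 5 blocks around the centromeres. The blocks are Chr1 12.5 to 17 Mb, Chr2 1.5 to 6 Mb, Chr3 11.5 to 16 Mb, Chr4 2 to 5.5 Mb and Chr5 10 to 14 Mb (TAIR10). The members were thus chosen by 2 measured values, the exon number and the position of the models, which are not findings. The rule took 302 of 829 deposited TE models (36.4%). Models that overlapped on the same strand by at least 1 bp in any library were joined into loci, and the members lay at 138 of 344 loci (40.1%). The blocks also held 290 spliced models, and 73 unspliced models lay outside them.

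Buds of inflorescence stages 1 to 12 were taken from plants of ecotype Columbia kept at 22 °C in 16-h days. The 6 libraries were ddm1 rdr6 pol V replicate B, ddm1 rdr6 pol V replicate A, ddm1 pol V, ddm1 rdr6, ddm1 and wild type (wt), so every mutant library carried the ddm1 mutation. Replicate B had 13 PCR cycles and its own sequencing run, round 2, which the labels call deeper. The other 5 libraries had 14 cycles and shared round 1. RNA of the mutants was extracted with TriZOL LS and that of wt with TriZOL, per the labels. Each genotype other than ddm1 rdr6 pol V had 1 library, with no replicate check, and whether A and B stem from different plants is not in the labels. The files hold TE models only, so the mutated genes were not measured and did not check the labels.

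DDM1 is a chromatin remodeler that lets DNA methyltransferases reach TEs packed in heterochromatin, which in Arabidopsis is densest around the centromeres. Without it many of these TEs lose methylation and are transcribed. RDR6 copies TE transcripts into double-stranded RNA from which small interfering RNAs are cut, and Pol V makes scaffold transcripts that guide RNA-directed DNA methylation. Many TEs near the centromeres are long terminal repeat retrotransposons, whose repeat at one end holds the promoter and whose repeat at the other end holds the polyadenylation signal. Reverse transcription for these libraries started from poly(A).

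Part of the members in the 4 largest sequence groups share a short stretch of sequence at their 5′ ends. The windows shown run from 50 nt before the first base of the model through its first 30 nt, 5′ to 3′ on the transcript's strand, read from TAIR10.1. Capitals mark an exact match to GCATAGGGGATAATGA, 16 bases noticed in the values and then searched for in all members. The first 4 lines come from the 4 sequence groups with most loci, and the last is a locus without the exact match. Their positions are Chr4 3841585-3841664 (minus), Chr5 11988126-11988205 (plus), Chr2 4956135-4956214 (plus), Chr4 3466284-3466363 (plus) and Chr4 3386207-3386286 (plus).
AT4TE16900: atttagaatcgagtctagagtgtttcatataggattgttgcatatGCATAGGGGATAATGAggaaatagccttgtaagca
AT5TE42855: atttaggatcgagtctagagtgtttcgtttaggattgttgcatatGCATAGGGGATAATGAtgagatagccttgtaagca
AT2TE20330: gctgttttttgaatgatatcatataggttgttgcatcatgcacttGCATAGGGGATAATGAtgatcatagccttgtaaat
AT4TE15665: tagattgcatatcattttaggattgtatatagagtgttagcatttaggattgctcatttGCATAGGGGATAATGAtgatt
AT4TE15420: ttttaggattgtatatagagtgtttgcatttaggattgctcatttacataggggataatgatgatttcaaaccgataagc
At AT4TE16900, AT5TE42855 and AT2TE20330 the match began 5 nt before the first base of the model, and at AT4TE15665 it began at base 10 of the model. The match was searched from 10 nt before to 40 nt after the 5′ end of 1 model per locus, that with most reads. It stood at 18 of 138 member loci (13.0%, exact Clopper-Pearson 95% interval 7.92 to 19.8), against 1 of 116 loci of spliced models in the blocks and 0 of 43 loci of unspliced models outside. The 18 were 6 of 6 loci in the group of AT4TE16900, 6 of 13 in that of AT4TE15665, 4 of 11 in that of AT2TE15880 and 2 of 7 in that of AT2TE20330. Of all 50-nt windows of the genome, 0.00191% hold it, and of those in the blocks 0.0105%. Because the 16 bases were picked from these members, their higher share among members is no independent result. The 18 loci lie in 4 groups of copies, which the interval treats as independent loci.

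The 3′ ends of the same elements came in different kinds, shown by windows of the last 40 nt of the model and the next 20 nt of the genome, with the longest run of A in capitals. The first 3 lines are models of AT4TE16900 that share a 5′ end, with 519 and 764 nt in replicate B and 2188 nt in ddm1 pol V. The next 2 are the models of 579 and 2010 nt of AT4TE15420 in replicate B, and the last 2 are the loci with a member in wt. In this order the windows lie at Chr4 3841076-3841135, Chr4 3840831-3840890 and Chr4 3839407-3839466 (all minus), Chr4 3386796-3386855 and Chr4 3388227-3388286 (plus), Chr2 4006080-4006139 (minus) and Chr3 15600759-15600818 (plus).
AT4TE16900, 519 nt: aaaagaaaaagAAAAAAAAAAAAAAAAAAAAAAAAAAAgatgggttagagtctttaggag
AT4TE16900, 764 nt: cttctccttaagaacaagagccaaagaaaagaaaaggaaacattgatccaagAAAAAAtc
AT4TE16900, 2188 nt: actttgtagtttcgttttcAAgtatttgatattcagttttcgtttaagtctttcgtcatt
AT4TE15420, 579 nt: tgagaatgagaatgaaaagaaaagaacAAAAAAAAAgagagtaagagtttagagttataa
AT4TE15420, 2010 nt: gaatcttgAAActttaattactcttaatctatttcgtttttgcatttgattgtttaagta
AT2TE16940: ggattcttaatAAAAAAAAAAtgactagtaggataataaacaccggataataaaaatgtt
AT3TE63065: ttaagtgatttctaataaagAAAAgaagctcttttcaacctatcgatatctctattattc
The 519-nt model of AT4TE16900 ended 2 nt after a run of 27 A in the genome, while the 2188-nt model had no run longer than 2 A in its window.

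Members were rare in wt and numbered 26 or more in each mutant library. All TE models of the series numbered 432 in replicate B, 91 in replicate A and 145 in ddm1 pol V. They numbered 107 in ddm1 rdr6, 48 in ddm1 and 6 in wt. Member numbers followed the same order of libraries, and whether their ratios differ from those of all models was not tested. Replicate B had 142 members (exact Poisson 95% interval 119.6 to 167) at 123 loci. Replicate A had 34 (23.5 to 47.5) at 32 loci, ddm1 pol V 59 (44.9 to 76.1) at 50 loci and ddm1 rdr6 39 (27.7 to 53.3) at 34 loci. The ddm1 library had 26 (17 to 38.1) at 23 loci, and wt had 2 (0.242 to 7.22) at 2 loci. The number of ddm1 was 13 times that of wt (3.25 to 113, adjusted p = 1.06e-05, exact conditional binomial test, two-sided, Benjamini-Hochberg over 7 pairs of libraries).

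Members, like all TE models, were more numerous in ddm1 pol V than in ddm1, and in replicate B of the triple mutant than in replicate A. By the same exact test, ddm1 pol V had 2.27 times the members of ddm1 (1.41 to 3.75, adjusted p = 0.00104). This ratio did not pass when only models with at least 15 reads (1.78, adjusted p = 0.151) or at least 20 reads (2.27, adjusted p = 0.0672) were counted with the exact test. The ratio of ddm1 rdr6 to ddm1 was 1.5 (0.890 to 2.57, adjusted p = 0.190) and that of replicate A to ddm1 was 1.31 (0.762 to 2.27, adjusted p = 0.427, exact tests), so neither was called with replicate A. Replicate A had 0.576 times the members of ddm1 pol V (0.366 to 0.894, adjusted p = 0.0217) and 0.872 times those of ddm1 rdr6 (0.534 to 1.42, adjusted p = 0.640, exact tests). The first of these ratios was not called at 15 reads (0.656, adjusted p = 0.257), at 20 reads (0.64, adjusted p = 0.295) or over distinct loci (0.64, adjusted p = 0.105, exact tests). Replicate B had 4.18 times the members of replicate A (2.86 to 6.26, adjusted p = 4.75e-16, exact test). Taking B for the triple mutant, its ratio to ddm1 pol V was 2.41 and that to ddm1 rdr6 was 3.64, both in the other direction and both called, and its ratio to ddm1 was 5.46 and called as well (adjusted p = 9.09e-20, exact test). The intervals and p-values, those of ddm1 against wt included, cover counting error between single libraries only and do not compare genotypes. They treat members as independent, though members share loci and many loci are copies of each other. Library totals are not in the files. Round, PCR cycles and depth moved together between the replicates, so that their parts cannot be told apart. Fewer cells with a transcript and less RNA per cell cannot be told apart in these bulk samples.

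**Figure D1:**
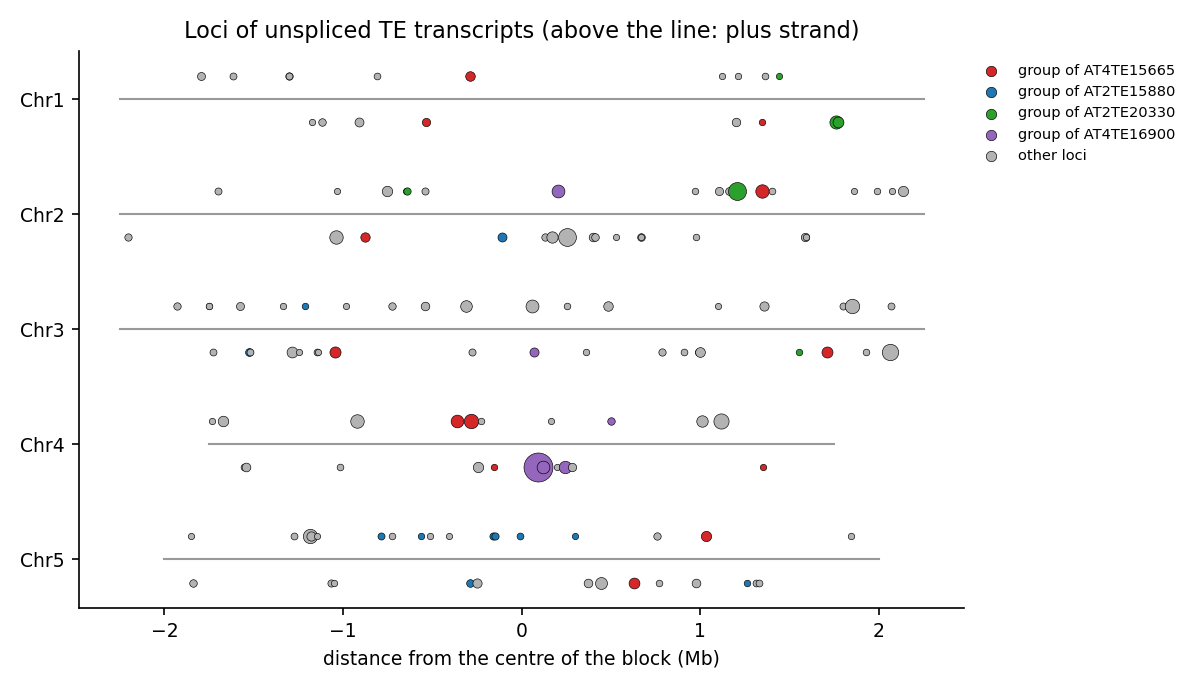
Member loci (circles) on the 5 centromere-flanking blocks, by distance from the block's centre in Mb; circles above a line are on the plus strand and below it on the minus strand, circle area grows with the summed reads, and colours mark the 4 sequence groups with most loci. Loci of the group of AT4TE15665 lie on all 5 chromosomes, and the 11 loci of the group of AT2TE15880 lie on Chr2, Chr3 and Chr5.

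The members spread over all 5 blocks and both strands. Chr3 had 37 loci, Chr2 had 32, Chr5 had 30, Chr4 had 21 and Chr1 had 18, or 8.22, 7.11, 7.5, 6 and 4 loci per Mb of block. The plus strand held 72 of 138 loci (52.2%, 43.5 to 60.7). No member overlapped a member on the opposite strand. AT4TE16080 (Chr4 3591752 to 3593772, minus), a single model of 2021 nt with 12 reads in replicate B, lay opposite a model with 2 exons that spanned it, which had 29 reads in replicate B against 12 in ddm1 pol V.

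The rule's edges cut through no unspliced model, and all 302 members lay whole inside their block. Nearest inside were AT4TE09580, 18.4 kb from the left edge on Chr4 with 11 reads, and AT2TE07145, 48.8 kb from the left edge on Chr2 with 12 reads in the model nearest it. Nearest outside were AT4TE09480, 15.6 kb from the left edge on Chr4 with 13 reads, and AT5TE36335, 17.7 kb from the left edge on Chr5 with 46 reads, all in replicate B. At the other edges the nearest unspliced models lay 113 to 479 kb inside and 155 to 3678 kb outside, and on the left of Chr2 there was none outside.

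Reads were concentrated in few loci. Each model name carries a whole number of at least 10, taken to be the reads that formed the model (cluster reads). Members had a median of 18 reads and a maximum of 429, and 73 members had at most 12 reads. The locus with most reads gave 16.8% of the 9798 reads of all members, and the top 10 loci gave 44.9%. Members made up 28.7% of the TE reads of replicate B, 40.4% in replicate A, 38.6% in ddm1 pol V, 47.2% in ddm1 rdr6, 61.4% in ddm1 and 49.3% of the 136 TE reads in wt. The shares of all models in the blocks that were unspliced were 46.3%, 54.8%, 55.1%, 51.3% and 68.4% in the 5 mutant libraries in the same order, and both block models of wt were unspliced.

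Of the 138 loci, 14 had members in all 5 mutant libraries, and 2 of these had one in wt as well. AT2TE16940 (Chr2 4006099 to 4007019, minus) is SADHU1-1, annotated in RefSeq as a non-coding retrotransposon of the Sadhu family and as the pseudogene AT2G10410. Its unspliced models held 10 reads in replicate B, 98 in replicate A, 117 in ddm1 pol V, 114 in ddm1 rdr6, 60 in ddm1 and 56 in wt. Replicate B, which had most members, had the fewest reads at this locus, and its model there had 246 nt, against 918 to 921 nt in the other 5 libraries, with the same 3′ end to within 1 nt. AT3TE63065 (Chr3 15600424 to 15600798, plus, in the pseudogene AT3G43690) had 161 reads in replicate B, 20 in replicate A, 22 in ddm1 pol V, 30 in ddm1 rdr6, 11 in ddm1 and 11 in wt. Here the 5′ end was identical in all 6 libraries and the length was 370 to 375 nt, and replicate B was the highest.

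AT4TE16900 (Chr4 3839427 to 3841614, minus, in no annotated gene on its strand) had the most reads in every mutant library. They were 555 in replicate B, 129 in replicate A, 379 in ddm1 pol V, 399 in ddm1 rdr6 and 186 in ddm1, with no member in wt. AT3TE63935 (Chr3 15813075 to 15814053, minus) is SADHU3-1 and had 26 reads in replicate B, 85 in replicate A, 14 in ddm1 pol V, 159 in ddm1 rdr6 and 79 in ddm1. The order differed from that of AT4TE16900, with ddm1 pol V the lowest and replicate B next. AT2TE11985 (Chr2 2708112 to 2709380, minus) gave a model of exactly 1269 nt with the same ends in all 5, with 134 reads in replicate B, 21 in replicate A, 29 in ddm1 pol V, 12 in ddm1 rdr6 and 10 in ddm1. The other 9 loci in all 5 mutant libraries were AT4TE20245, AT4TE15665, AT4TE13280, AT2TE20940, AT1TE54480, AT4TE16945, AT4TE17360, AT3TE52305 and AT3TE51460, with 13 to 173 reads in replicate B and 12 to 37 in ddm1.

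**Figure D2:**
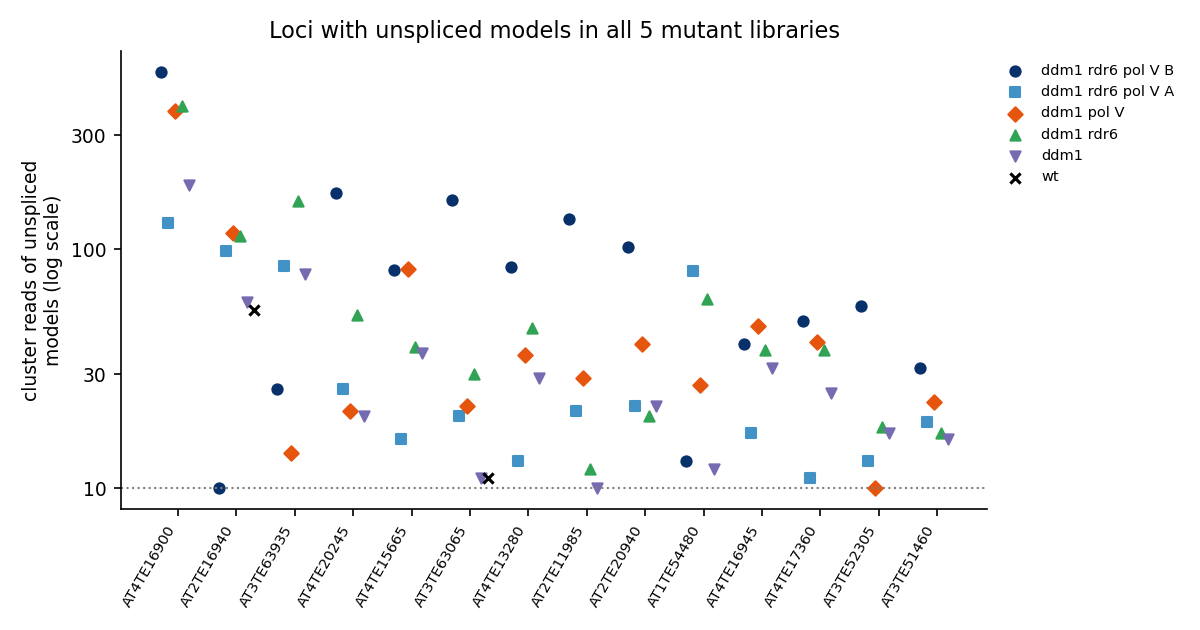
Reads of unspliced models (log scale, dotted line at the minimum of 10 reads) at the 14 loci with members in all 5 mutant libraries, 1 symbol per library. Replicate B is the highest at AT4TE16900 and 8 other loci but is the lowest or near it at AT2TE16940, AT3TE63935 and AT1TE54480, and wt appears at AT2TE16940 (56 reads) and AT3TE63065 (11 reads) only.

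Most loci were seen in 1 library. Replicate B alone held 73 loci, with a median of 15 reads and at most 56. In all, 85 loci had members in 1 library, and 65 of the 138 loci had a member in a round 1 library. The loci with members outside replicate B only numbered 15. Replicate B also held 432 of all 829 TE models of the series. The matching shares over all 344 loci of the series were not counted, so these numbers do not set members apart. Among the 3 loci with most reads per library were also AT2TE20330 (Chr2 4956185 to 4958226, plus) and AT5TE39315 (Chr5 10817123 to 10817511, plus) in replicate B. AT2TE20330 had 356 reads in replicate B, 59 in replicate A, 10 in ddm1 pol V and 41 in ddm1 rdr6, with no model in ddm1. AT5TE39315 had 203 reads in replicate B, 16 in replicate A, 20 in ddm1 rdr6 and 11 in ddm1, with no member in ddm1 pol V. AT4TE19905 (Chr4 4757224 to 4757946, plus) had 88 reads in ddm1 pol V, where it was among the 3 highest, with 20 in replicate B and 19 in ddm1. No deposited model has fewer than 10 reads, so a missing model does not show silence.

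Members were shorter than spliced models of the blocks, but not particular among unspliced models. The median length over all 302 was 584.5 nt (quartiles 356 and 914 nt), against a median of 928.5 nt for the spliced models of the blocks, counted without introns. Unspliced models outside the blocks had a median of 652 nt. With 1 model per locus, the medians were 564.5 nt for members, 502 nt for unspliced models outside and 963 nt for spliced models. The median of members was 566 nt in replicate B, 579 nt in replicate A, 643 nt in ddm1 pol V, 633 nt in ddm1 rdr6, 583.5 nt in ddm1 and 645.5 nt in wt. The medians lay close together beside quartiles such as 329 and 829 nt in replicate B and 529 and 703 nt in ddm1. The 5 longest members were AT3TE50670 with 2740 nt in ddm1 rdr6 and 2733 nt in ddm1, AT3TE57470 with 2431 nt in ddm1 pol V, AT4TE16900 with 2188 nt in ddm1 pol V and AT2TE15880 with 2158 nt in replicate B and in ddm1 rdr6, a tie for the last place. The 3 shortest were AT3TE62940 with 113 nt, AT1TE43975 with 119 nt and AT5TE39425 with 146 nt, all in replicate B with 10 to 20 reads. At the upper end, 36 members at 17 loci had 2000 nt or more.

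**Figure D3:**
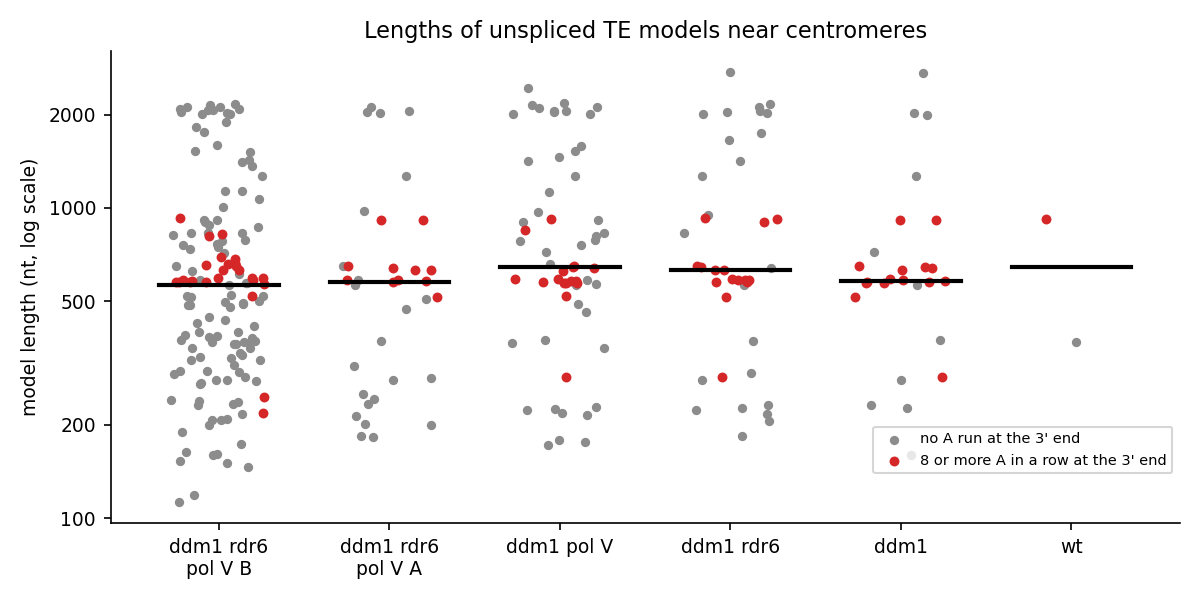
Length of every member (points, nt on a log scale) by library, with horizontal jitter for display and a black line at each library's median. Red points have 8 or more A in a row around the 3′ end and gather near 500 to 700 nt in every mutant library, while the points at 2000 nt and above are grey.

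Part of the members ended at runs of A in the genome. Their median length was 592 nt, against 544 nt for members without such a run. A run was counted when 8 or more A stood in a row between 30 nt before and 20 nt after the 3′ end, a limit chosen after the values were seen. It was found at 84 of 302 members (27.8%), which held 43.2% of the members' reads. By locus, with 1 model each, the share was 18.8% (26 of 138, 12.7 to 26.4) for members, 1.72% (2 of 116, 0.209 to 6.09) for spliced models of the same blocks and 18.6% (8 of 43, 8.39 to 33.4) for unspliced models outside. Of all 50-nt windows in the blocks, 1.25% hold such a run. The intervals of the member loci and of the spliced models did not overlap, while the unspliced models outside had nearly the same share as the members. Without the loci of the groups of AT4TE15665 and AT4TE16900, the share of member loci was 8.40% (10 of 119, 4.10 to 14.9), and this interval overlapped that of the spliced models.

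In the groups of AT4TE15665 and AT4TE16900, length and run went together. All 62 members of 517 to 664 nt, from 16 loci, had the run, and none of the 15 members of 2001 to 2188 nt, from 8 loci, did. These counts repeat the ends of 1 locus in several libraries, and the loci are copies of each other. The 3 members of other lengths had none either. Outside these 2 groups, 22 of 222 members had the run (9.91%). By library, the run was found in 25 of 142 members of replicate B (17.6%), 11 of 34 of replicate A (32.4%), 17 of 59 of ddm1 pol V (28.8%), 15 of 39 of ddm1 rdr6 (38.5%), 15 of 26 of ddm1 (57.7%) and 1 of 2 of wt. Outside the 2 groups it was found in 9 of 118 members of replicate B, 2 of 25 of replicate A, 3 of 37 of ddm1 pol V, 4 of 27 of ddm1 rdr6 and 3 of 13 of ddm1. When members with a run were left out, a choice made after seeing the data, ddm1 pol V had 3.82 times the members of ddm1 (adjusted p = 7.87e-05) and replicate A 2.09 times (adjusted p = 0.0672, exact tests). Reverse transcription of these libraries starts on poly(A), and whether it also started on these runs was not tested.

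**Figure D4:**
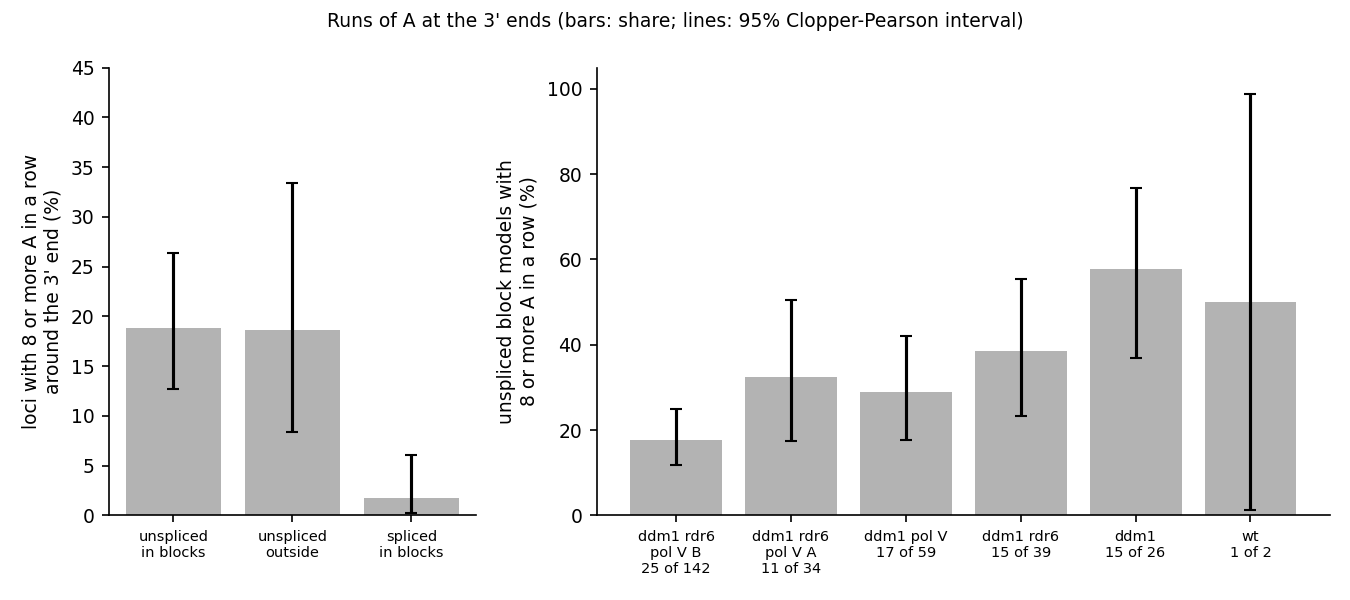
Share (%) of loci with 8 or more A in a row around the 3′ end in 3 sets of models (left, 1 model per locus) and of members per library (right, with numbers under the bars); lines are exact 95% intervals. Spliced models of the blocks stand at 1.72%, against 18.8% for member loci, and the share by library runs between 17.6% in replicate B and 57.7% in ddm1 among the mutants.

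At some loci, short and long forms stood side by side. They had the same start or, at AT2TE20940 and AT5TE44730, starts up to 14 nt apart. At AT4TE16900, models of 517 to 520 nt and of 652 nt shared an identical 5′ end in all 5 mutant libraries. The short form held 429 reads and the longer 115 in replicate B, 109 and 20 in replicate A, 284 and 65 in ddm1 pol V, 322 and 77 in ddm1 rdr6, and 136 and 50 in ddm1. The short form thus had 78.9% of the reads of the 2 forms in replicate B (75.2 to 82.2), 84.5% in replicate A (77.1 to 90.3), 81.4% in ddm1 pol V (76.9 to 85.3), 80.7% in ddm1 rdr6 (76.5 to 84.5) and 73.1% in ddm1 (66.1 to 79.3). Each interval overlapped that of ddm1. Forms of 759 and 764 nt (14 reads in ddm1 pol V and 11 in replicate B) and of 2188 nt (16 reads in ddm1 pol V) began at the same base.

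At AT4TE15420 (Chr4 3386257 to 3388268, plus), the forms were 575 to 579 nt and 2001 to 2012 nt long. The short form held 40 reads and the long form 32 in replicate B, 22 and 25 in ddm1 pol V, 11 and 12 in ddm1 rdr6, and 15 and 18 in ddm1, with no model in replicate A. Both forms were thus near equal in all 4 libraries, with a short share between 45.5% in ddm1 and 55.6% in replicate B. AT2TE20940 had 65 short and 37 long reads in replicate B and 30 and 10 in ddm1 pol V, and the short form alone in replicate A (22 reads), ddm1 rdr6 (20) and ddm1 (22). AT5TE44730 had 40 and 16 in replicate B and 15 and 13 in ddm1 pol V, and the short form alone in ddm1 rdr6 (10) and ddm1 (13). AT2TE12555 had 26 and 15 in replicate B and 13 and 12 in ddm1 pol V, with no model elsewhere. No model in the files has fewer than 10 reads, so a missing long form does not show that it was absent. The short form that stood alone had 10 and 13 reads at AT5TE44730, near that minimum, and 20 to 22 reads at AT2TE20940.

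**Figure D5:**
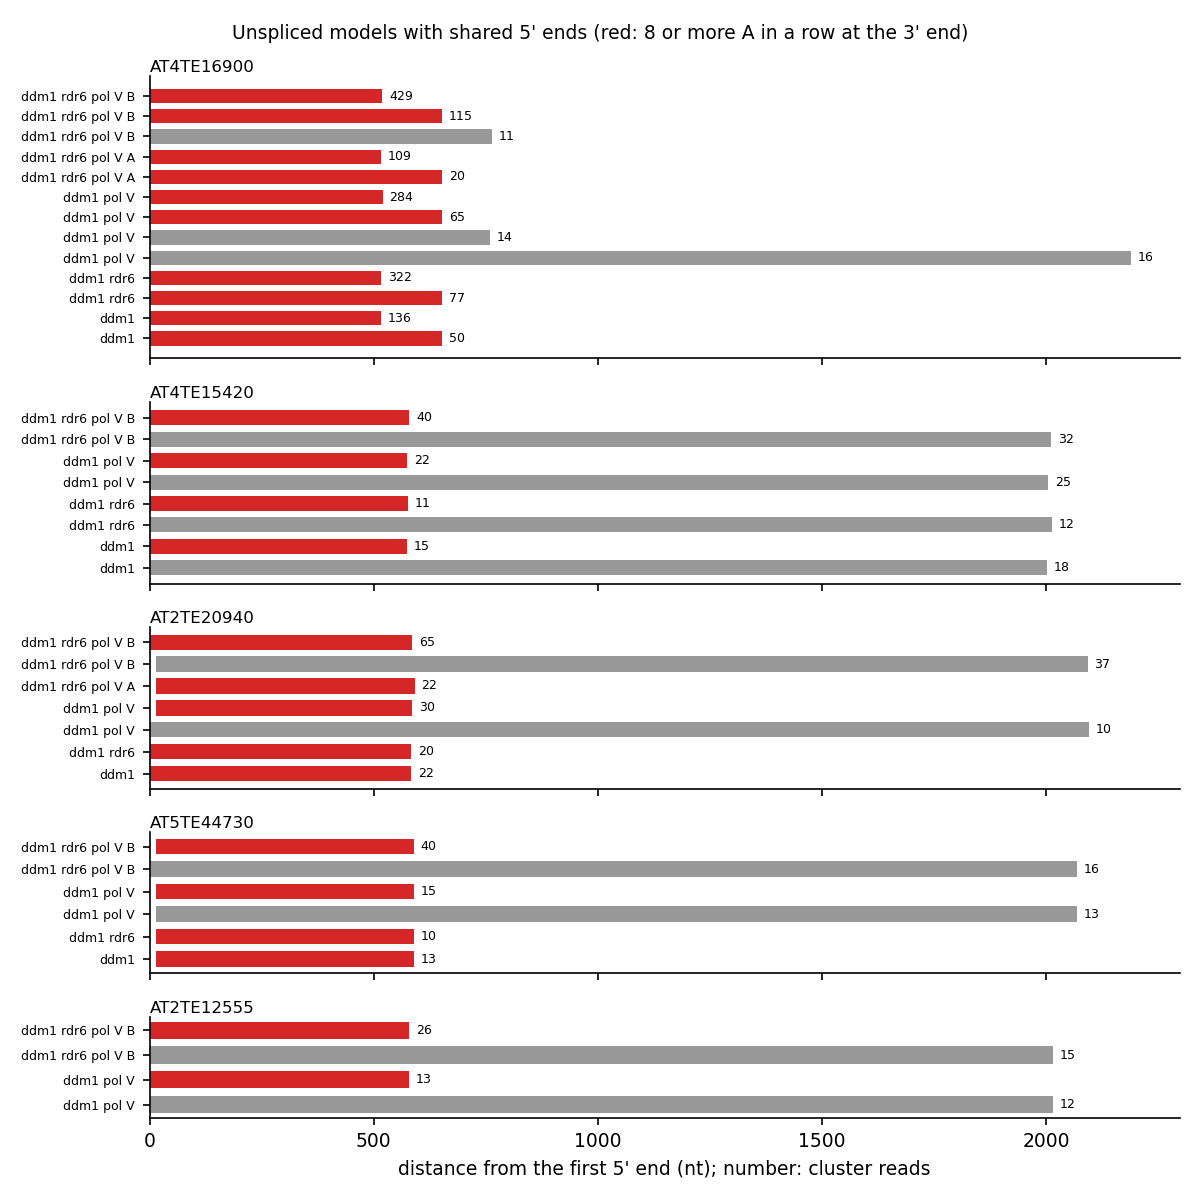
Models of 5 loci drawn from their first 5′ end (nt), 1 bar per model with its reads at the bar's end; red bars end at 8 or more A in a row. Every red bar is under 700 nt long, and every bar of 2000 nt or more is grey.

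Ends recurred between libraries. At the 53 loci with members in at least 2 libraries, compared by the model with most reads in each, all 5′ ends lay within 10 nt of each other at 41 (77.4%, 63.8 to 87.7) and were identical at 32. All 3′ ends lay within 10 nt at 36 (67.9%, 53.7 to 80.1) and were identical at 14. The 5′ ends spread over more than 100 nt at 6 loci, and the 3′ ends at AT4TE15420 and at 1 locus of AT5TE39315. Those with spread 5′ ends were AT2TE16940, AT3TE51460, AT3TE50670, both loci of AT1TE54480 and the locus of AT5TE39315 at Chr5 10819039 to 10820047. At AT3TE50670 (Chr3 12225064 to 12227803, minus), the model had 397 nt in replicate B, against 2740 nt in ddm1 rdr6 and 2733 nt in ddm1. In the group of AT4TE15665, the 5′ ends took 2 positions 14 nt apart at 6 loci, AT1TE46665, AT2TE20940, AT3TE52305, AT3TE62685, AT4TE15665 and AT5TE44730.

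Many members were copies of each other. Loci were joined into a sequence group where 80% of the shorter model aligned to the other at 80% identity, and 81 loci fell into 21 groups while 57 stood alone. The group of AT4TE15665 had 13 loci on 5 chromosomes with 49 members of 176 to 2095 nt, at 84.7 to 95.4% identity. It had 12 loci in replicate B, 4 in replicate A, 9 in ddm1 pol V, 6 in ddm1 rdr6 and 7 in ddm1. Its loci were AT1TE46665, AT1TE47605, AT1TE52985, AT2TE12555, AT2TE20940, AT3TE52305, AT3TE62685, AT4TE15420, AT4TE15665, AT4TE16080, AT4TE21170, AT5TE44730 and AT5TE46310. It had no locus in wt.

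The group of AT4TE16900 had 6 loci with 31 members and 2255 reads, the most of any group, at 96.4 to 99.4% identity. It had 6 loci in replicate B, 4 in replicate A, 5 in ddm1 pol V, 4 in ddm1 rdr6 and 4 in ddm1. Besides AT4TE16900 itself it held AT2TE16800, AT3TE56700, AT4TE16945, AT4TE17360 and AT4TE18245, with 14 to 55 reads each in replicate B. AT2TE16800 had 55 reads in replicate B, 42 in ddm1 pol V, 29 in ddm1 rdr6 and 55 in ddm1, with no model in replicate A.

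The group of AT2TE15880 was seen mostly in replicate B, which held 123 of all 138 member loci. Its 11 loci numbered 10 in replicate B, 0 in replicate A, 1 in ddm1 pol V, 2 in ddm1 rdr6 and 1 in ddm1, with 10 to 30 reads each in replicate B except AT5TE43665, which had 10 reads in ddm1 pol V only. AT2TE15880 itself had 22 reads in replicate B and 35 in ddm1 rdr6. The others were AT3TE50670, AT3TE51660, AT5TE40575, AT5TE41355, AT5TE42190, AT5TE42855, AT5TE47115 and 2 loci of AT5TE42470. The group of AT2TE20330 had 7 loci, with 7 in replicate B, 3 in replicate A, 3 in ddm1 pol V, 3 in ddm1 rdr6 and 1 in ddm1, namely AT2TE20330, AT1TE53370, AT3TE62215 and 2 loci each of AT1TE54480 and AT2TE13440. Models of these 4 groups also aligned between groups at 67.6 to 75% identity, over 709 to 1578 nt.

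The sequences of most member loci were repeated elsewhere in the genome. Counting the locus itself, a member locus had a median of 8.5 copies in the genome at 80% identity over 80% of its length (quartiles 2 and 37, maximum 176). At least 10 copies were found for 63 of 138 member loci (45.7%, 37.2 to 54.3), against 5 of 43 unspliced loci outside the blocks (11.6%, 3.89 to 25.1). A median of 98.5% of a locus's copies lay in the 5 blocks, and 26 loci had no second copy. This share counts the locus itself, which lies in a block by the rule, so loci without a second copy lie wholly inside by construction. A share without the locus itself was not computed, and no other set stands beside it. Reads of near-identical copies may be placed at the wrong one. The second copy reached 99% identity at 6 loci, AT2TE12030, AT3TE50675, AT4TE16900, AT4TE16945 and the 2 loci of AT5TE42470, and none reached 100%.

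Some members had a copy of themselves close by on the same strand, as the terminal repeats of a retrotransposon do. Within 15 kb, 16 of 138 member loci had one (11.6%, 6.77 to 18.1), against 1 of 43 unspliced loci outside (2.33%, 0.0589 to 12.3), and these intervals overlapped. The distance had a median of 9339 nt and lay between 8 and 13 kb for 14 of the 16, at 83.9 to 99.3% identity. The copy was upstream of the member at 10 loci and downstream at 6. Pairs at AT1TE54480, AT5TE39315 and AT5TE42470, where both copies were member loci, are counted from both sides in these numbers. At AT1TE54480 both copies were members. The downstream one (Chr1 16510699 to 16512743, minus) had 13 reads in replicate B, 81 in replicate A, 27 in ddm1 pol V, 62 in ddm1 rdr6 and 12 in ddm1. The upstream one (Chr1 16519796 to 16521879, minus) had 11 reads in replicate B, 56 in replicate A, 13 in ddm1 pol V and 28 in ddm1 rdr6, with no model in ddm1. Where both copies had a model, the downstream one had more reads, though only 13 against 11 in replicate B. Replicate B was far below replicate A at both. The 2 loci of AT5TE42470, 9623 nt apart, had 22 and 23 reads in replicate B only.

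Each model was deposited with the TE identifiers it was paired with. Members were paired with 156 of the 382 identifiers, 30 of which also had a spliced model. Of the members, 236 had 1 identifier, 65 had 2 and 1 had 3, and 9 identifiers were paired with more than 1 member locus. Spliced models were found at 22 of the 138 loci (15.9%).

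Fewer member loci lay in annotated genes than loci of spliced models. A pseudogene on the same strand, the type under which RefSeq lists many TEs, overlapped 63 of 138 member loci (45.7%, 37.2 to 54.3), against 85 of 116 loci of spliced models in the blocks (73.3%, 64.3 to 81.1) and 31 of 43 unspliced loci outside (72.1%, 56.3 to 84.7). No gene on either strand was annotated at 68 member loci (49.3%), against 21 of the spliced (18.1%) and 3 of the outside loci (6.98%). A protein-coding gene overlapped 1 member locus. An open reading frame of at least 100 codons was found at 19 member loci (13.8%, 8.5 to 20.7), against 62 of 116 spliced loci (53.4%, 44.0 to 62.8), and members were also shorter than these. At unspliced loci outside it was found at 11 of 43 (25.6%, 13.5 to 41.2), an interval that overlapped that of the members. At 10 member loci a model matched 1 of 132 reference proteins named as TE proteins (7.25%, 3.53 to 12.9), against 7 of 43 unspliced loci outside (16.3%, 6.81 to 30.7). These were 6 matches to transposase-associated domain proteins, 2 to gag-polyproteins, and 1 each to a Copia-like polyprotein (AT2TE18495) and a MuDR family transposase (AT3TE50570).

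Core promoter and polyadenylation motifs were found near the ends of a minority. TATAAA, the core of the TATA box, stood in the 50 nt before the 5′ end on the transcript's strand at 25 of 138 member loci (18.1%, 12.1 to 25.6), against 28 of 116 spliced loci (24.1%) and 4 of 43 outside (9.30%). It was on the opposite strand at 3 member loci, and 3.93% of all 50-nt windows hold it. Where present, it began 26 to 40 nt before the 5′ end, with a median of 33 nt (coded as -33). AATAAA, the canonical polyadenylation signal of animals and 1 of several used in plants, stood in the last 50 nt at 24 member loci (17.4%, 11.5 to 24.8) and on the opposite strand at 11. Its share was nearly the same at spliced loci (20 of 116, 17.2%) and at unspliced loci outside (9 of 43, 20.9%), and 4.92% of all windows hold it. These matches describe letters in a window and were not tested as sites.

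The shares of member loci past 2-fold in raw reads lay near those of all shared loci. All shared loci include the member loci, so part of this nearness is built in. Loci were compared where both libraries had a model, by the reads of all their models, spliced ones included, and called at 2-fold with no test. A member locus could thus enter through spliced models alone, as AT1TE45390 did with 40 reads in ddm1 pol V and 12 in ddm1. Between ddm1 rdr6 and ddm1, 8 of 23 member loci were at least 2-fold higher and 0 were lower, against 40.5% higher and 2.38% lower over all 42 shared loci of the series. The median log2 ratio was 0.60 for members and 0.69 for all. Centred on this median of all shared loci, 2 member loci were higher and 3 lower. Between ddm1 pol V and ddm1, 11 of 23 were higher and 1 lower, against 57.5% and 7.5% of all 40 shared loci. Centred on the median log2 ratio of all shared loci, 1.14, they numbered 2 higher and 4 lower. The locus that was lower in raw reads was AT3TE63935, SADHU3-1, at a log2 ratio of -2.50. Between replicate A and ddm1, 4 of 18 were higher and 3 lower (AT4TE15665, AT4TE17360 and AT4TE13280), against 28.1% and 15.6% of all 32. Centred on the median log2 ratio of 0.35, they numbered 3 higher and 4 lower. The centred counts of these pairs have no centred count over all shared loci beside them, so they do not set members apart.

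Between replicates B and A, 27 of 35 member loci were at least 2-fold higher and 4 lower, against 82.5% and 6.25% of all 80 shared loci. Centred on the median log2 ratio of all shared loci, 2.17, member loci numbered 2 higher and 8 lower. The median of the member loci was 2.18, near that of all shared loci, which include them. No centred count over all shared loci stands beside these numbers. The 4 loci lower in replicate B in raw reads were AT2TE16940 (10 reads in replicate B and 98 in replicate A, log2 ratio -3.29), the 2 loci of AT1TE54480 (log2 ratios -2.64 and -2.35) and AT3TE63935 (26 reads in replicate B and 85 in replicate A, log2 ratio -1.71). At AT2TE16940 and AT1TE54480, replicate B also had a shorter model than replicate A. The model of the downstream copy of AT1TE54480 had 1518 nt in replicate B and 2045 nt in replicate A, and that of the upstream copy 736 nt and 2056 nt. The pairs with ddm1 share its library and are not independent of each other.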

How the data were processed

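Poly(A) RNA (50 ng per library, per the labels' protocols) was sequenced as Nanopore PCR-cDNA. The authors deposited transcript models with exons, and pairings of models with TE identifiers. These are positions and names with no measured unit. The submitters' processing notes name minimap2 and TAIR10. The model files give pinfish, a read-clustering tool, as their source. Its settings and the rule of the pairing are unknown here. The number ending each model name was read as its cluster reads, which the files do not state.

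Members and lists were chosen with earlier results of these data known. Named loci were those in wt or in all 5 mutant libraries, the 3 with most reads per mutant library, the 5 longest and 3 shortest members, the loci of the 4 largest sequence groups, and the models nearest the block edges. AT4TE16080 and the loci of forms, repeats, near-identical copies, spread ends, read folds and protein matches were chosen after their values were seen.

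Sequence came from TAIR10.1 (RefSeq). The 3′ window of 1 further form of AT4TE16900 is not reported here. Of 509 introns, 501 (98.4%) were GT-AG on it. Copies and groups came from BLAST+ 2.17.0 (blastn). Numbers were compared with scipy 1.17.1, two-sided, and the ratio test was tested on simulated data. PCR reads without molecular identifiers are not independent molecules, so intervals reflect counting error only. Figures used matplotlib 3.10.9 and calculations Python 3.11.15 with pandas 2.3.3.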

Additional observations from a re-analysis of the deposited data

Results flagged for a closer look

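The ratio of member numbers that went with the rdr6 mutation differed between backgrounds when replicate A stood for the triple mutant. In the pol V background, replicate A had 34 members and ddm1 pol V 59, a ratio of 0.576. Without the pol V mutation, ddm1 rdr6 had 39 members and ddm1 had 26, a ratio of 1.5. The first ratio divided by the second was 0.384, and Fisher's exact test on these 4 numbers gave p = 0.00565. With the 142 members of replicate B, the first ratio was 2.41 and the quotient 1.60 (p = 0.127, Fisher's exact test). The numbers of all TE models went the same way with replicate A. They were 91 in replicate A and 145 in ddm1 pol V, against 107 in ddm1 rdr6 and 48 in ddm1. The flagged difference is thus not particular to members. Each number comes from 1 library of unknown depth, so Fisher's test on them does not test a genetic interaction.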

How the results depend on the processing

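Across the results and alternatives, 98 values kept the direction and the call or stayed within the set limits, 12 counts moved, 5 ratios lost their call, 1 gained it and 2 reversed. The ratio of ddm1 pol V to ddm1 was 1.78 with at least 15 reads per model and 2.27 with at least 20, and that of replicate A to ddm1 pol V was 0.656 and 0.64, all without a call. Counting distinct loci gave 0.64 for replicate A to ddm1 pol V, again without a call. Without replicate A, with replicate B in its place, the ratios of the triple mutant were 5.46 to ddm1 (now called), 3.64 to ddm1 rdr6 and 2.41 to ddm1 pol V (both reversed). The members numbered 188 at 15 reads and 139 at 20 reads. The loci numbered 65 without replicate B and 133 without replicate A. The cause of these changes was not tested, other than that the stricter minimum and the left-out library remove models by construction.

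Counts of loci past the fold limit moved most. At 3-fold, 2 loci were higher in ddm1 rdr6 than in ddm1, 3 were higher in ddm1 pol V than in ddm1, and 0 were lower in replicate A than in ddm1. With ratios centred on the median of all shared loci, the numbers higher and lower were 2 and 3 for ddm1 rdr6 over ddm1, 2 and 4 for ddm1 pol V over ddm1, and 2 and 8 for replicate B over replicate A. No shares over all shared loci stand beside the counts at 3-fold or after centring. These counts therefore cannot be read as particular to members. Leaving out members with a run of A, asking for 6 or 10 A, and searching repeats within 10 or 20 kb were chosen after seeing the data and changed no call. No paired analysis was possible because only the triple mutant has replicates. Library totals are not in the files, so no ratio of numbers or reads can be set apart from depth, and models under 10 reads were not seen.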
